A study of Homo sapiens with 9 samples.

Results

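Transcripts were compared in SUIT2 cells, an established line from a human cancer of the pancreas, between 24 h and 6 h of exposure to interferon beta, a type I interferon. All 6 libraries labelled with the interferon were taken, 3 for each time, out of 9 in the series. The 6 h and the 24 h group each received fresh medium with 100 U/mL human interferon beta after 24 h of growth in 6-well plates, and the 3 control libraries are labelled as control treated, with no time given. Control levels are used here to say whether a transcript lay above or below control. They are also the baseline for the share of a rise that was kept and for the early and late division of accumulating genes. There is no control for each time, so the length of interferon exposure and the time in fresh medium cannot be told apart. Of 59609 genes in the table, 16964 had enough counts to be tested. Whether the replicates came from different cultures is not stated in the labels; the p-values thus reflect the variation among these libraries alone, and it may be technical.

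Estimated counts per library totalled 16799278 to 37420457 at 6 h and 25270387 to 40384407 at 24 h, against 15101734 to 19632741 in control. In the 24 h library of replicate 1 the 5.8S rRNA count was 1222 against 24 and 44 in the others, and that of RMRP, the RNA of an RNA-processing enzyme, 824 against 59 and 60; the counts of calls over all genes, of induced genes in each class and of list members moved by at most 1.5 times without any 1 library, except for the few rises in the checkpoint list, the mitochondrially encoded genes and the fibroblast, endothelial and acinar markers. Ductal epithelial markers summed to 5933 to 6256 CPM at 6 h and 6035 to 6160 at 24 h. Leukocyte markers summed to 372.1 to 389 and 404.5 to 426.1 CPM, most of it from LYZ and CD68, and 10 of 14 were under 0.1 CPM, PTPRC, which encodes CD45, at 0. Markers of fibroblasts, endothelium and acinar cells summed to 7.581 to 8.631 and 6.407 to 6.925 CPM, and 13 and 12 of 17 were under 0.1 CPM. Their part in the results was not tested.

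Type I interferon binds the receptor chains IFNAR1 and IFNAR2, and the kinases JAK1 and TYK2 then activate STAT proteins. ISGF3, which holds STAT2 and IRF9, binds the interferon-stimulated response element (ISRE), while STAT dimers bind the gamma-activated sequence (GAS). The response also induces its own brakes: SOCS1 blocks the JAK kinases and USP18 blocks signalling at the receptor. The level of an induced transcript at a later time therefore depends both on continued transcription and on how long the RNA lasts, and RNA levels alone do not separate them.

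Promoter windows are shown for 4 genes in each class of induced genes that decayed, persisted or accumulated between the times, since the ISRE is the element through which ISGF3 acts. They were picked, whatever motifs they held, as the most induced of the named genes with a matched entry in the promoter table. Each is 120 bases on the strand of the gene, from RefSeq (GRCh38.p14), ending at the transcription start or, where an ISRE lay farther away, 30 bases past the ISRE nearest the start where the window allowed. Capitals mark ISRE matches, taken as 2 copies of GAAA with any 2 bases between them, on either strand.
Decayed:
RSAD2 (chr2:6865765-6865884, + strand): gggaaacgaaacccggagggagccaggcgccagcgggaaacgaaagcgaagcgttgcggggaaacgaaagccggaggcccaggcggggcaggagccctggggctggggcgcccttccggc
IFIT1 (chr10:89392440-89392559, + strand): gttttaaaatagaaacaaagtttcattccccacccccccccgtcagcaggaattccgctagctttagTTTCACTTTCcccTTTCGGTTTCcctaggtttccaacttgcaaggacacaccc
CMPK2 (chr2:6866636-6866755, - strand): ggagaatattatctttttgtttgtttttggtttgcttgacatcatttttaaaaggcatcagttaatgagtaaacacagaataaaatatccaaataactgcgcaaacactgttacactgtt
RTP4 (chr3:187368265-187368384, + strand): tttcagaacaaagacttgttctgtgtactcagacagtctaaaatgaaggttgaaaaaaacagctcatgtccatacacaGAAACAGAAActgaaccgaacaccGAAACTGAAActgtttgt
Persisted:
CFB (chr6:31945875-31945994, + strand): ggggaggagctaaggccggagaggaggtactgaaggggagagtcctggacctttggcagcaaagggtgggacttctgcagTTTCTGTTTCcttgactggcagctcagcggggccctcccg
BTN3A2 (chr6:26365078-26365197, + strand): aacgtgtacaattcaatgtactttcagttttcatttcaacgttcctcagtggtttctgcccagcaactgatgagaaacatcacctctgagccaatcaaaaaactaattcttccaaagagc
BISPR (chr19:17405566-17405685, + strand): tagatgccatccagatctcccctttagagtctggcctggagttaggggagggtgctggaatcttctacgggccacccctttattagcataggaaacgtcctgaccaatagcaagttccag
IFI30 (chr19:18173693-18173812, + strand): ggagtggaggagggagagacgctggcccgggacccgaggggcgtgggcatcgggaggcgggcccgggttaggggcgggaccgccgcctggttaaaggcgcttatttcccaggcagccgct
Accumulated:
IFI6 (chr1:27672246-27672365, - strand): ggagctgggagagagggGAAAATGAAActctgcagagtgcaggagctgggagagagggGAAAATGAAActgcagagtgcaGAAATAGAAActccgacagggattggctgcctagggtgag
IFITM1 (chr11:313920-314039, + strand): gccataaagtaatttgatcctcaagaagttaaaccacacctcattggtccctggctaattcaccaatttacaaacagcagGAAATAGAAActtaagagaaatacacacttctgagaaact
HLA-B (chr6:31357180-31357299, - strand): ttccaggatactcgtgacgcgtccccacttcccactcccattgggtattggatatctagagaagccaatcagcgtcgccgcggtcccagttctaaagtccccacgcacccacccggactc
IFI27 (chr14:94110561-94110680, + strand): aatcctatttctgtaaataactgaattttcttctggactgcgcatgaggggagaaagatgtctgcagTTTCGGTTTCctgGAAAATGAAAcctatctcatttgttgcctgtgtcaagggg
An ISRE match within 250 bases before the start was present in 2 of the 4 genes that decayed, 1 of the 4 that persisted and 3 of the 4 that accumulated. No match says only that these letters are not in the window, and the strongly induced RSAD2 and CMPK2 were among those without one.

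Between 6 h and 24 h the interferon response contracted, but unevenly. Genes were called induced where the mean of both times was at least 2-fold above control with an adjusted p under 0.05, a contrast that does not favour either time. Induced genes were 548 (3.23% of those tested). Of them, 342 (62.4%) were called lower at 24 h (decayed), against 30.6% of all tested genes, and 230 of them by at least 2-fold, against 3.57%. Another 99 (18.1%) were called higher (accumulated), against 26.6% of all tested genes. In 339 of the 342 every 24 h library was below every 6 h library, and in 97 of the 99 every one was above. A call in the same libraries largely entails such separation. Over all 548 induced genes, every 24 h library was below every 6 h library in 357, against 32.4% of all tested genes. Every one was above in 108, against 29.8%. Another 29 (5.29%) persisted, meaning that no change was called and the 95% interval of the change lay within 1.5-fold either way, against 27.2% of all tested genes. The other 78 were unresolved, with no call and a wider interval. The 548 induced genes held 5.899, 5.931 and 6.004% of all counts in the 6 h libraries and 3.62, 3.528 and 3.608% in the 24 h libraries, with 0.8325 to 0.8487% in the control libraries. All 24 h libraries thus lay below all 6 h libraries and above all control libraries.

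**Figure D1:**
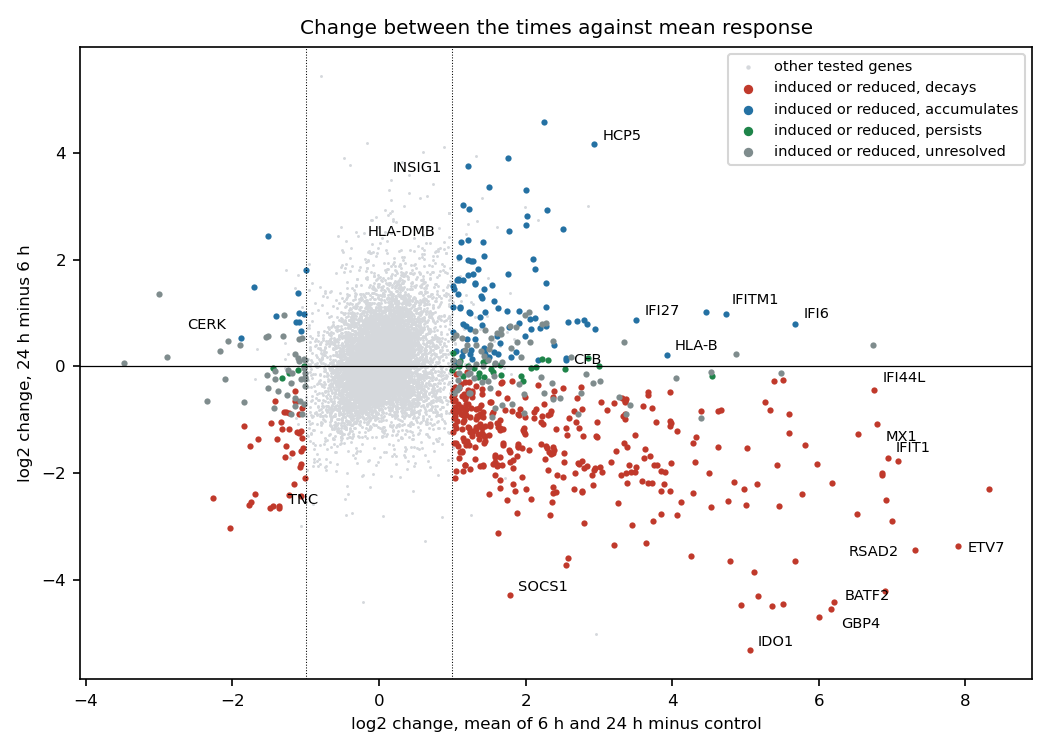
Each point is a tested gene: the horizontal axis is the log2 change of the mean of both times from control, the vertical axis the log2 change from 6 h to 24 h, and dotted lines mark 2-fold induction or reduction. Most induced genes lie below 0 on the vertical axis (342 of 548 decayed), with a smaller group above it (99) that includes IFI27, IFI6 and IFITM1.

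Across all genes the change between the times was broad and mostly small. The edgeR quasi-likelihood test called 9704 genes (57.2%) at a Benjamini-Hochberg adjusted p under 0.05, 4520 higher (26.6%) and 5184 lower (30.6%) at 24 h. Of these calls 6511 were under 1.5-fold, and 826 rises (4.87%) and 606 falls (3.57%) reached 2-fold. Counts of list members called, given below, are to be read against the shares of 26.6% higher and 30.6% lower. The split rests on scaling: 46.6% of calls were rises with TMM factors, 76.9% with library size only and 83.3% with the deposited normalized table. The deposited table is also named as TMM normalized, and it was tested with limma, so the test changed as well. Library size only and the deposited table moved the median log2 change of all genes from -0.02 to 0.20 and 0.22. The TMM factors lay between 0.918 and 0.924 at 6 h and between 1.067 and 1.075 at 24 h; changes below about this shift are given relative to the bulk of genes.

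The transcripts that decayed did so to very different depths. The 342 decaying genes kept a median of 25.47% of their 6 h rise above control at 24 h (quartiles 16.05 and 41.79%), and 48 kept under 10% while 53 kept over 50%. In the antiviral effector list 53 of 62 tested genes fell and 8 rose, with a median log2 change of -1.47 beside -0.02 over all genes. GBP1 and GBP4 are guanylate-binding proteins. GBP1 kept 7.69% of its rise (log2 change -3.31, SE 0.041, adjusted p 2.3e-17). GBP4 (chromosome 1, 89181144 to 89198943), measured 0.839, 0.705 and 1.43 CPM in control, 339.8, 318 and 354 at 6 h and 14.2, 13.8 and 14.9 at 24 h, where CPM is the count scaled to the library's total and its TMM factor. The 24 h libraries were far below the 6 h libraries and still above control (log2 change -4.56, SE 0.055, adjusted p 2.3e-17), and 3.95% of the rise was kept. RSAD2, which encodes viperin, an enzyme that makes a chain-terminating nucleotide (chromosome 2, 6865806 to 6898240), measured 0.779, 0.856 and 1.70 CPM in control, 572, 556 and 581 at 6 h and 56.6, 48.3 and 51.6 at 24 h (log2 change -3.44, SE 0.056, adjusted p 3.7e-16). Its neighbour CMPK2, a mitochondrial nucleotide kinase, fell less, with a log2 change of -2.03 (SE 0.051) and 24.1% of the rise kept; the 2 genes overlap on opposite strands, so reads from the shared stretch could be counted to either.

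IFIT1 and IFIT2, proteins that recognise foreign RNA, parted in the same way. IFIT1 measured 1542, 1570.2 and 1612 CPM at 6 h and 485, 468 and 482 at 24 h, a log2 change of -1.72 (SE 0.072). IFIT2 measured 395, 376 and 415 CPM at 6 h and 31.3, 31.1 and 31.6 at 24 h, a log2 change of -3.66 (SE 0.045), so that IFIT2 kept 7.41% of its rise and IFIT1 30.1%. Both overlap LIPA on the other strand in the deposited table. At the mild end, MX1, a GTPase that blocks virus replication, went from 2012, 2016 and 2032 CPM at 6 h to 989.5, 936 and 938 at 24 h (log2 change -1.08, SE 0.06, adjusted p 5.3e-10), and kept 46.9% of the rise. OAS2, an oligoadenylate synthetase, fell, with a log2 change of -1.48 (SE 0.038); that of IFI44L was -0.45 (SE 0.058). ISG15, the ubiquitin-like modifier, kept 81.95%, with 743, 748 and 608 CPM at 6 h and 589, 549.5 and 589 at 24 h: all 24 h libraries were below all 6 h libraries, of which replicate 3 stood closest. TRIM22, a ubiquitin ligase, RTP4, a chaperone of receptors, and LAMP3, a lysosomal membrane protein, changed by -2.31, -1.99 and -1.26 on the log2 scale. TRIM22 overlaps TRIM5 on the other strand.

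**Figure D2:**
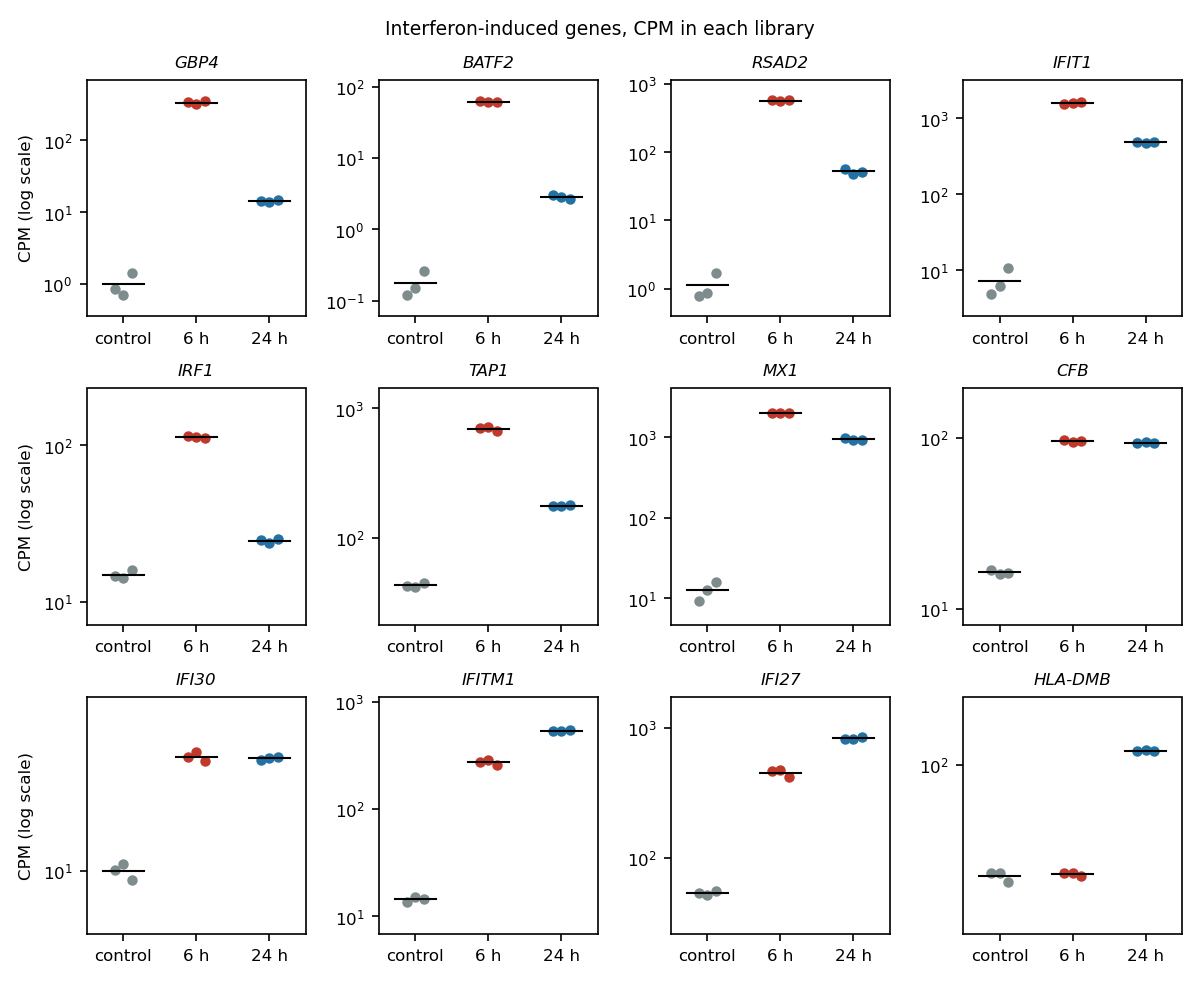
CPM of 12 interferon-induced genes in each library, on a log scale with its own range in each panel; points are the 3 libraries of a group and bars their mean. The upper 7 genes fall between 6 h and 24 h, CFB and IFI30 stay level, and IFITM1, IFI27 and HLA-DMB rise.

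The steepest falls were not all antiviral. IDO1, which degrades tryptophan, measured 4.87, 5.54 and 4.88 CPM at 6 h and 0.0930, 0.148 and 0.136 at 24 h, and its log2 change of -5.33 (SE 0.25) was the lowest among induced genes. NEXN, an actin-binding protein, fell, with a log2 change of -4.32 (SE 0.076), ZBP1, a sensor of Z-form nucleic acid, with -4.47 (SE 0.18), and LMO2, a transcriptional cofactor, with -3.59 (SE 0.16). KMO, an enzyme of the same tryptophan route, was low throughout, at 0.649, 0.693 and 0.755 CPM at 6 h and 0.0930, 0 and 0.0814 at 24 h. MAP2, a microtubule-associated protein, measured 9.28, 10.4 and 10.9 CPM at 6 h and 0.999, 1.37 and 1.57 at 24 h. For such large changes from few counts the standard error can understate the error.

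The signalling apparatus fell around a receptor that did not. Of 27 tested genes for signalling and feedback, 19 fell and 4 rose (median log2 change -0.64). The receptor chains were slightly higher at 24 h: IFNAR1 measured 52.2, 52.3 and 56.1 CPM at 6 h and 63.4, 64.6 and 61.2 at 24 h (log2 change 0.23, SE 0.04, adjusted p 0.00017) and IFNAR2 changed by 0.31 (SE 0.047). The kinase TYK2 was level, with a change of -0.01 (95% interval -0.09 to 0.08). The ISGF3 subunits IRF9 and STAT2 fell, to different extents. IRF9 measured 10.7, 14.1 and 14.7 CPM in control, 105, 106 and 104 at 6 h and 69.7, 69.6 and 70.3 at 24 h and kept 61.8% of its rise (log2 change -0.59, SE 0.047, adjusted p 4.3e-08). STAT2 measured 22.6, 19.1 and 23.1 CPM in control, 325, 324 and 351 at 6 h and 94.6, 87.2 and 88.6 at 24 h and kept 21.97%. In these values IRF9 kept more of its rise than STAT2.

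Among the brakes, SOCS1 was back among the control values at 24 h: it measured 0.300, 0.352 and 0.652 CPM in control, 7.07, 6.38 and 6.36 at 6 h and 0.232, 0.407 and 0.380 at 24 h, with the 24 h libraries inside the control range or below it. It overlaps RMI2 on the other strand. SOCS3 measured 7.25, 7.45 and 10.04 CPM in control, 10.9, 9.89 and 10.4 at 6 h and 2.81, 3.00 and 2.93 at 24 h, so that at 24 h it lay below all control libraries (log2 change -1.83, SE 0.12, adjusted p 3.9e-09). USP18 measured 7.85, 8.86 and 9.06 CPM in control, 647, 666 and 659 at 6 h and 147, 140.0 and 141 at 24 h, and with 20.7% of its rise kept it stayed well above control.

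Transcription factors of the response fell steeply, and those named here stayed above control in the mean. IRF1, an early activator, measured 14.7, 14.1 and 15.8 CPM in control, 115, 113 and 112 at 6 h and 24.7, 23.7 and 25.1 at 24 h and kept 9.76% of its rise; its antagonist IRF2 kept 10.04%. BATF2 measured 0.120, 0.151 and 0.261 CPM in control, 62.9, 61.4 and 60.3 at 6 h and 3.00, 2.85 and 2.66 at 24 h (log2 change -4.43, SE 0.063, adjusted p 9.6e-17). ETV7, a repressor, measured 0, 0.101 and 0.130 CPM in control, 62.2, 63.5 and 61.9 at 6 h and 6.16, 5.74 and 6.19 at 24 h (log2 change -3.37, SE 0.06, adjusted p 8.1e-16). In IRF1, BATF2 and ETV7, every 24 h library lay between the control and the 6 h libraries. In the list of genes linked to GAS elements or IRF1, 20 of 22 fell and 1 rose, with a median log2 change of -2.25, the lowest of the 35 lists examined.

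Sensors of nucleic acid fell as well: 17 of 19 tested genes fell and none rose (median log2 change -1.43); with library size only, 17 fell and 2 rose. DDX58, which encodes RIG-I, measured 11.1, 12.1 and 13.8 CPM in control, 702, 679.6 and 744 at 6 h and 113, 111 and 117 at 24 h, and IFIH1, which encodes MDA5, 6.83, 7.05 and 8.54 CPM in control, 447, 439 and 467 at 6 h and 102, 100.4 and 98.4 at 24 h. NLRC5, the activator of class I genes, changed by -2.37 (SE 0.039). STING1, the adaptor named in the title of the series, fell less, from 108, 111 and 99.9 CPM at 6 h to 66.4, 66.8 and 66.8 at 24 h, and kept 48.2% of its rise. CGAS, the DNA sensor that signals to it, measured 21.8, 23.7 and 22.4 CPM in control, 35.04, 37.1 and 40.4 at 6 h and 18.5, 18.2 and 15.96 at 24 h and at 24 h was below control. MAVS, the adaptor of the RNA sensors, was level, with a change of -0.02 (95% interval -0.09 to 0.06).

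Class I antigen presentation genes moved in both directions. Of 22 tested genes 13 fell and 8 rose (median log2 change -0.35), against 30.6% lower and 26.6% higher among all tested genes. With library size only 12 fell and 10 rose, and 7 fell and 8 rose with the deposited normalized table. TAP1 and TAP2, the peptide transporter, went down: TAP1 from 711, 713 and 671 CPM at 6 h to 176, 174 and 179.8 at 24 h (log2 change -1.98, SE 0.033, adjusted p 3.7e-16), which left 20.4% of its rise, and TAP2 with a log2 change of -1.12 (SE 0.029). TAP1 overlaps PSMB9 on the other strand. The heavy chains HLA-B and HLA-C were slightly higher at 24 h, HLA-B at 527, 554 and 515 CPM at 6 h and 615, 618 and 628 at 24 h (log2 change 0.22, SE 0.031, adjusted p 1.9e-05) and HLA-C with a change of 0.13 (SE 0.034). HLA-E, a non-classical heavy chain, fell, from 514, 529 and 488 CPM at 6 h to 259, 259 and 261 at 24 h (log2 change -0.97, SE 0.031, adjusted p 6e-13). The HLA heavy chains are similar in sequence and the deposited spans of HLA-B and HLA-C overlap, so reads can be counted to the wrong one. TAPBPL, a peptide editor, was level, at 33.2, 34.2 and 32.2 CPM at 6 h and 32.3, 32.5 and 35.2 at 24 h (95% interval of the log2 change -0.10 to 0.11).

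Class II genes went the other way: 6 of 7 tested genes rose and 1 fell (median log2 change 0.76). HLA-DMB and HLA-DMA encode the chaperone that loads class II peptides, and HLA-DMB measured 23.7, 23.7 and 21.1 CPM in control, 23.8, 23.7 and 22.7 at 6 h and 119.5, 122 and 119 at 24 h. It was at the control level at 6 h and well above it in every 24 h library (log2 change 2.37, SE 0.042, adjusted p 8.1e-16). HLA-DMA rose, with a log2 change of 1.72 (SE 0.055) and the class II chain HLA-DRA by 1.03 (SE 0.12), from 4.54, 3.79 and 3.51 CPM at 6 h to 7.71, 8.04 and 8.09 at 24 h. The gene that fell was CIITA, the master activator of class II transcription, at 1.92, 1.81 and 1.96 CPM in control, 11.5, 11.5 and 11.6 at 6 h and 3.18, 3.15 and 3.29 at 24 h (log2 change -1.84, SE 0.093, adjusted p 1.6e-10).

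Secreted factors and ligands mostly fell. Of 14 tested chemokines, cytokines and receptors 9 fell and 3 rose (median log2 change -1.22). TNFSF13B, which encodes the B cell survival factor BAFF, went from 35.5, 38.95 and 39.3 CPM at 6 h to 1.53, 1.96 and 1.79 at 24 h and kept 4.19%. CSF1, a macrophage growth factor, measured 3.30, 3.37 and 3.26 CPM in control, 42.4, 39.5 and 41.7 at 6 h and 6.58, 6.78 and 7.74 at 24 h. The T cell attractants CXCL10 and CXCL11 stayed low at both times, CXCL10 at 1.82, 2.22 and 2.67 CPM at 6 h and 0.279, 0.333 and 0.299 at 24 h (log2 change -2.91, SE 0.28, adjusted p 3.7e-07) and CXCL11 at 0.779, 1.20 and 1.22 CPM at 6 h and 0.302, 0.333 and 0.109 at 24 h (log2 change -2.15, SE 0.38, adjusted p 0.00019). CD274, which encodes PD-L1, measured 0.120, 0.352 and 0.0652 CPM in control, 17.7, 18.7 and 20.9 at 6 h and 1.44, 1.33 and 1.79 at 24 h (log2 change -3.64, SE 0.14, adjusted p 5.7e-12), and in the checkpoint list 8 of 11 fell and 1 rose. With library size only 6 of these fell and 4 rose, and without replicate 3 of either the 6 h or the 24 h group 0 rose. CD276, another checkpoint ligand, was level, with a change of 0.05 (95% interval -0.06 to 0.15). In the cell death list 27 of 32 fell and 2 rose, among them APOL6 (log2 change -2.78) and APOL2 (log2 change -2.75), apolipoproteins L, and MLKL, the effector of necroptosis, whose 29.9, 31.97 and 31.2 CPM in control, 108, 107 and 115 at 6 h and 26.8, 27.1 and 26.8 at 24 h put the 24 h libraries below the control libraries. PARP14, a mono-ADP-ribosyltransferase, fell, with a log2 change of -2.35 (SE 0.038), in a list of NAD and PARP genes where 13 of 25 fell and 4 rose; with library size only 11 fell and 10 rose.

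The 29 induced transcripts that held their level depend on the margin and scaling: 69 persisted with a margin of 2-fold and 75 with the deposited normalized table. CFB, complement factor B, measured 16.9, 15.96 and 16.2 CPM in control, 97.02, 94.9 and 95.8 at 6 h and 93.1, 93.8 and 92.7 at 24 h: the 24 h libraries lay just below the 6 h libraries, with a change of -0.04 (95% interval -0.11 to 0.02). IFI30, a lysosomal thiol reductase that prepares antigen, measured 10.1, 10.9 and 8.87 CPM in control, 42.2, 45.2 and 40.5 at 6 h and 40.7, 41.9 and 42.6 at 24 h, and its groups overlapped. LIPA, lysosomal acid lipase, had a log2 difference of -0.05 (95% interval -0.13 to 0.03), the butyrophilin BTN3A2 one of 0.12 (-0.04 to 0.27), and FOXA1, a pioneer transcription factor, one of 0.10 (0.01 to 0.20). BISPR, a long non-coding RNA beside BST2, had a log2 difference of 0.15 (-0.06 to 0.36). With library size only, CFB, IFI30 and LIPA came out at 0.18, 0.19 and 0.17, near the shift of all genes.

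Transcripts that accumulated were of 2 kinds. In 40 of the 99 the 6 h level was already at least 2-fold above control, and the median level above control at 24 h was 176% of that at 6 h. This group held several small membrane proteins that restrict virus entry or release. IFITM1 measured 276, 285 and 257 CPM at 6 h and 535, 529 and 545 at 24 h (log2 change 0.98, SE 0.036, adjusted p 4.1e-12), and IFITM3 84.6, 94.2 and 93.1 CPM in control, 549, 575 and 521 at 6 h and 892, 888 and 911 at 24 h. IFITM2 rose less, with a log2 change of 0.16 (SE 0.04), and IFITM1 and IFITM2 overlap in the deposited table. BST2, which encodes tetherin, rose from 168, 174 and 167 CPM at 6 h to 305, 314 and 316 at 24 h. IFI27 and IFI6, mitochondrial and endoplasmic reticulum membrane proteins, measured 460.5, 474 and 419 CPM at 6 h and 823, 815 and 851 at 24 h for IFI27 (log2 change 0.88, SE 0.039, adjusted p 4.1e-11) and 394, 386 and 320.2 CPM at 6 h and 633, 619 and 659 at 24 h for IFI6 (log2 change 0.80, SE 0.059, adjusted p 1.4e-08). LY6E, a surface protein, rose, with a log2 change of 0.80 (SE 0.038). In each of these 7 genes every 24 h library was above every 6 h library.

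The other 59 were less than 2-fold above control at 6 h, or below it as INSIG1 was, and rose later. HCP5, a long non-coding RNA of the HLA region, measured 0.719, 0.453 and 0.717 CPM in control, 1.17, 1.06 and 1.13 at 6 h and 19.8, 19.9 and 21.1 at 24 h (log2 change 4.17, SE 0.11, adjusted p 6.4e-14). MYB, a transcription factor, rose from 0.714, 0.924 and 0.784 CPM at 6 h to 8.71, 8.59 and 7.95 at 24 h and GPX2, a glutathione peroxidase, from 9.41, 8.27 and 8.25 CPM at 6 h to 52.9, 50.1 and 46.8 at 24 h. SLC40A1, the iron exporter ferroportin, CREB3L3, a membrane-bound transcription factor, and TJP3, a tight junction protein, were below control at 6 h and above it at 24 h, with log2 changes between the times of 2.93 (SE 0.18), 2.74 (SE 0.097) and 2.60 (SE 0.089); they do not count as induced over both times. Without a control at 24 h, these rises cannot be told apart from changes with time in culture.

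The reduced genes, judged by the mean of both times, were few, at 99 (0.584% of those tested). Of them, 41 were called lower at 24 h than at 6 h, 11 were called higher, 5 persisted and 42 were unresolved. TNC, the matrix glycoprotein tenascin C, measured 12.5, 14.05 and 12.1 CPM in control, 12.7, 11.6 and 13.4 at 6 h and 2.02, 1.85 and 2.09 at 24 h, and TMEM158, a gene that follows RAS signalling, 35.8, 32.1 and 37.7 CPM in control, 34.7, 34.3 and 32.9 at 6 h and 5.55, 5.93 and 5.02 at 24 h. Both overlapped the control libraries at 6 h and were far below them at 24 h. ANO1, a chloride channel, changed by -2.21 (SE 0.086). CERK, the kinase that makes ceramide 1-phosphate, went the other way: it measured 114, 112 and 117 CPM in control, 25.6, 25.7 and 26.03 at 6 h and 37.7, 36.01 and 38.7 at 24 h, a partial return towards control (log2 change 0.54, SE 0.042, adjusted p 2.8e-08). ZMAT3, a p53 target, rose, with a log2 change of 0.95 (SE 0.11) from its low point and GPATCH11 with 0.84 (SE 0.064); GPATCH11 overlaps the induced EIF2AK2 on the other strand. LONRF2 and UNKL stayed at their reduced level, LONRF2 with a change of -0.07 (95% interval -0.19 to 0.05) and UNKL with 0.01 (-0.11 to 0.12).

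Promoters and transcripts were described for the classes, with no test, and the division of accumulating genes into early and late, the transcript lengths and the AU-rich heptamer were chosen after values had been seen. RefSeq promoters matched 328 of the 548 induced genes. An ISRE (2 copies of GAAA with any 2 bases between them, either strand, 250 bases before to 50 after the start) was found in 83 of these (25.3%), 309 of 10630 tested genes (2.91%) and 996 of all 27305 promoters (3.65%). It was in 46 of 138 promoters of genes that decayed at least 2-fold (33.3%), 21 of 77 that decayed less (27.3%), 3 of 17 that persisted (17.6%), 8 of 22 that accumulated early (36.4%) and 3 of 39 that accumulated late (7.69%). Genes that decayed and genes that accumulated early had shares within a few points of each other. A GAS (TTCNNNGAA, which reads the same on both strands and can overlap an ISRE) was in 21 (15.2%), 7 (9.09%), 2 (11.8%), 4 (18.2%) and 3 (7.69%) of these promoters, and in 659 of all tested (6.2%).

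The coding transcripts came from GENCODE release 29, 1 per gene with the longest coding sequence. They differed more between genes that decayed at least 2-fold and genes that accumulated early. The median length was 3167 bases for 188 genes that decayed at least 2-fold, 1462.5 bases for 30 that accumulated early, 3004 bases for 45 that accumulated late and 3099.5 bases for 12362 tested genes. The 3' UTR held the AU-rich heptamer TATTTAT, on the transcript strand, in 71 of the 188 (37.8%), 1 of the 30 (3.33%), 13 of the 45 (28.9%) and 3884 of all (31.4%). It was in 18 of 94 genes that decayed under 2-fold (19.1%) and 4 of 17 that persisted (23.5%), both below the share of all tested genes. The 3' UTRs of the early group were also shorter, with a median of 407 bases. It was 1174 for genes that decayed at least 2-fold and 996 for all genes, and a longer UTR can hold more matches. Per kilobase of 3' UTR the heptamer was found 0.347 times in genes that decayed at least 2-fold and 0.205 times in those that decayed less. It was found 0.174 times in the early group, all from 1 transcript, and 0.328 times in all genes.

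**Figure D3:**
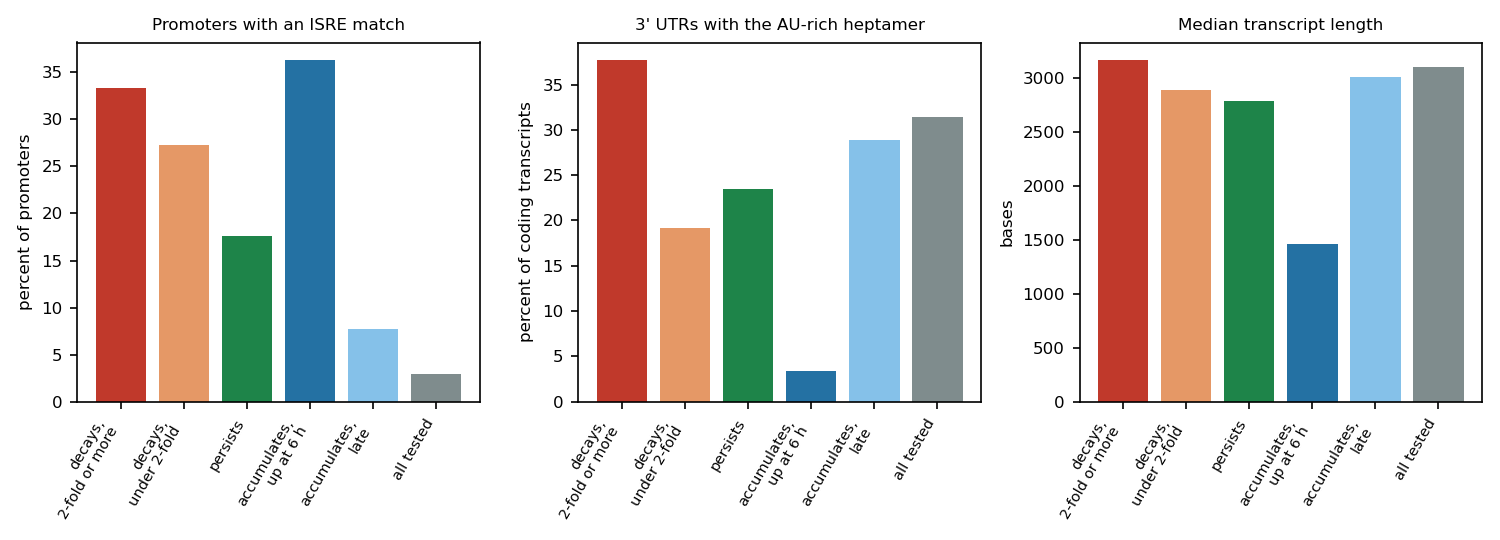
Share of promoters with an ISRE match, share of coding transcripts whose 3' UTR holds TATTTAT, and median transcript length, for 5 classes of induced genes and all tested genes. The early accumulating genes have an ISRE share like that of genes that decayed at least 2-fold (36.4 and 33.3%) and shorter transcripts (1462.5 and 3167 bases).

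Outside the interferon genes, the cell cycle lists moved in opposite directions. Of 40 tested genes of G1/S and DNA replication, 34 rose and 3 fell (median log2 change 0.37). E2F2, a transcription factor of S phase entry, measured 9.23, 8.16 and 8.48 CPM in control, 5.39, 4.39 and 4.91 at 6 h and 16.7, 17.4 and 17.2 at 24 h (log2 change 1.81, SE 0.083, adjusted p 5.3e-11): it was below control at 6 h and above it at 24 h. The cyclins CCNE1 and CCNE2 rose, with a log2 change of 1.05 (SE 0.083) and 1.29 (SE 0.069), and MCM2, a subunit of the replicative helicase, with 0.89 (SE 0.031). E2F7, a repressor of the same family, was level, with a change of -0.02 (95% interval -0.13 to 0.09). Of 39 tested genes of G2/M and mitosis, 38 fell and none rose (median log2 change -0.49); with library size only 33 fell and 1 rose, and 9 fell with the deposited normalized table. CDC20, the activator of the anaphase-promoting complex, measured 280.0, 279 and 282 CPM in control, 344, 358 and 332 at 6 h and 137, 135 and 144 at 24 h (log2 change -1.31, SE 0.034, adjusted p 5.3e-14) and CDC25B, a phosphatase of mitotic entry, 238, 236 and 239.7 CPM in control, 256, 247 and 244 at 6 h and 111, 111 and 112 at 24 h. In bulk RNA, fewer cells of a kind and less RNA per cell cannot be told apart. BUB1 and PLK1, mitotic kinases, fell, with a log2 change of -1.02 (SE 0.034) and -0.98 (SE 0.031) and MKI67, which encodes Ki-67, with -0.49 (SE 0.057).

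Genes of thymidine handling bear on FLT, a thymidine analogue that TK1 phosphorylates and that serves as a PET tracer in the title of the series. TK1 measured 102, 98.3 and 102 CPM in control, 112, 108 and 95.7 at 6 h and 104, 104 and 106 at 24 h, its groups overlapped and its change was -0.0046 (95% interval -0.10 to 0.09). TYMP, thymidine phosphorylase, which breaks thymidine down, measured 7.13, 6.90 and 7.11 CPM in control, 163, 159 and 149 at 6 h and 76.7, 75.2 and 79.4 at 24 h (log2 change -1.02, SE 0.037, adjusted p 3.8e-12), so 46.8% of the rise was kept. TYMP overlaps SCO2 and ODF3B on the same strand, and reads of the shared stretch could be counted to any of them. NT5C3A, a pyrimidine nucleotidase, fell from 303, 313 and 337 CPM at 6 h to 76.3, 79.01 and 70.1 at 24 h, and NT5E, the surface nucleotidase CD73, from 495, 487 and 515 CPM at 6 h to 204, 195 and 195 at 24 h. RRM2, a subunit of ribonucleotide reductase, rose, with a log2 change of 0.40 (SE 0.026). The nucleoside transporters parted: SLC29A3, of lysosomes, rose, with a log2 change of 0.99 (SE 0.14), and SLC29A1, of the surface, fell, with a log2 change of -0.26 (SE 0.05), though with the deposited normalized table SLC29A1 was at 0.00. TYMS, thymidylate synthase, fell, with a log2 change of -0.22 (SE 0.028) and was at 0.05 with that table. DCK, deoxycytidine kinase, had a log2 difference of 0.13 (95% interval 0.01 to 0.25). In the list, 16 of 31 fell and 7 rose, against 30.6% lower and 26.6% higher among all tested genes. With library size only 7 fell and 15 rose, against 14.6% and 48.5%.

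Sterol synthesis genes rose together. Of 32 tested genes of cholesterol and fatty acid synthesis 29 rose and 2 fell (median log2 change 0.50). INSIG1, the sterol-regulated anchor of SREBP processing, measured 7.31, 7.95 and 6.85 CPM in control, 5.26, 5.73 and 3.63 at 6 h and 61.1, 64.2 and 64.7 at 24 h (log2 change 3.76, SE 0.092, adjusted p 3e-14). SREBF1, a master regulator of lipid synthesis, measured 103, 98.5 and 98.5 CPM in control, 88.5, 83.4 and 78.1 at 6 h and 335, 329.9 and 335 at 24 h. In both the 6 h libraries lay below the control libraries and the 24 h libraries above them. IDI1, an isomerase of the mevalonate pathway, rose, with a log2 change of 1.10 (SE 0.042), while FDPS, the next enzyme, was level at 78.98, 82.9 and 78.7 CPM at 6 h and 81.5, 79.9 and 84.1 at 24 h (95% interval of the log2 change -0.05 to 0.11).

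Genes read out by ERK, SRF and YAP mostly fell, as did matrix genes. In the ERK list 17 of 26 fell and 5 rose (median log2 change -0.46), in the SRF and YAP list 20 of 24 fell and none rose (-0.46; with library size only 16 fell and 4 rose), and in the matrix list 18 of 24 fell and 3 rose (-0.88). FOSL1, an AP-1 subunit, measured 1028, 1053 and 1054 CPM in control, 1028, 1059 and 1003 at 6 h and 315, 301 and 307 at 24 h (log2 change -1.74, SE 0.028, adjusted p 3.1e-16), level with control at 6 h and far below it at 24 h. DUSP4, an ERK phosphatase, fell, with a log2 change of -1.66 (SE 0.034). MMP1, a collagenase, went from 1255, 1315 and 1317 CPM at 6 h to 327, 330.0 and 334 at 24 h, and PLAU, urokinase, from 323, 336 and 330.4 CPM at 6 h to 142, 146 and 150.4 at 24 h. FLNA, filamin A, AXL, a receptor kinase, and ACTB, beta-actin, fell, with a log2 change of -1.11 (SE 0.025), -1.10 (SE 0.029) and -0.81 (SE 0.02). Of 18 tested ductal epithelial markers 9 rose and 9 fell, and with library size only 9 rose and 3 fell. The keratins KRT8, KRT18 and KRT7 had means of 3180, 1240 and 158 CPM at 6 h and 2740, 990 and 125 at 24 h. Means of KRT19 and EPCAM were 875 and 154 CPM at 6 h and 1330 and 208 at 24 h. The risers included ELF3, an epithelial transcription factor, which went from 84.4, 88.8 and 82.8 CPM at 6 h to 246, 238 and 249 at 24 h, CDH1, E-cadherin, with a log2 change of 1.04 (SE 0.068), and CLDN7, a claudin, with 1.22 (SE 0.082), while S100P fell, with -1.88 (SE 0.11).

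Stress genes were mixed, to be read against 26.6% of all tested genes called higher and 30.6% called lower. HSPA1A and HSPA1B, near-identical genes of the inducible HSP70 whose reads may be split arbitrarily, fell in parallel: HSPA1A measured 650.3, 695 and 726 CPM in control, 1365, 1402 and 1384 at 6 h and 202, 207 and 206 at 24 h and HSPA1B changed by -2.79 (SE 0.03). BAG3, their co-chaperone, fell, with a log2 change of -1.08 (SE 0.04), and HSPA5, the endoplasmic reticulum chaperone, was within the margin at -0.07 (95% interval -0.13 to -0.00). In this list 15 of 26 fell and 6 rose; with library size only 12 fell and 12 rose. Among p53 targets 13 of 25 rose and 10 fell, with CDKN1A, the cell cycle inhibitor p21, at 71.7, 71.1 and 73.9 CPM in control, 109.5, 105 and 98.4 at 6 h and 30.4, 31.7 and 33.1 at 24 h and GDF15, a stress cytokine, at 34.95, 33.5 and 28.6 CPM in control, 26.2, 22.8 and 19.6 at 6 h and 69.6, 66.2 and 68.03 at 24 h as opposite cases. FAS, a death receptor, fell, with a log2 change of -1.13 (SE 0.048) and overlaps ACTA2 on the other strand. Among immediate early genes 14 of 24 fell and 6 rose, the latter including EGR1 (log2 change 1.81) and JUND (log2 change 1.31).

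Other lists held calls in both directions, to be read against 26.6% of all tested genes higher and 30.6% lower, or 48.5% and 14.6% with library size only. WARS1, an interferon-induced tRNA synthetase, fell, with a log2 change of -1.87 (SE 0.028) in a list where 14 of 20 fell and 1 rose; with library size only 3 fell and 7 rose. HK2, hexokinase 2, fell, with a log2 change of -1.67 (SE 0.037) and PKM, pyruvate kinase, was level at -0.02 (95% interval -0.07 to 0.03), in a glycolysis list with 10 of 23 lower and 6 higher; with library size only 6 were lower and 12 higher. STC2, a stanniocalcin, fell, with a log2 change of -2.00 (SE 0.05) in the ATF4 list, where 11 of 27 fell and 10 rose; with library size only 6 fell and 13 rose. The clock genes NR1D1 and PER1 changed by -1.22 (SE 0.052) and 1.00 (SE 0.098), and 11 of 18 clock genes rose and 5 fell. MT2A, a metallothionein, fell, with a log2 change of -1.18 (SE 0.055), while 5 of 8 genes of its list rose and 3 fell. Of 20 hypoxia genes 10 rose and 4 fell, and of 21 NF-kB genes 11 fell and 6 rose; with library size only 6 NF-kB genes fell and 8 rose. Of 30 lysosomal genes 10 rose and 9 fell, and of 30 nuclear genes of oxidative phosphorylation 10 rose and 5 fell; with library size only these were 20 and 3, and 26 and 2. The lysosomal shares were thus near those of all tested genes.

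Ribosomal protein genes moved little, and their direction rests on scaling: 41 of 44 fell and none rose (median log2 change -0.26), against 15 lower and 9 higher with library size only and none called with the deposited normalized table. RPLP0 fell, with a log2 change of -0.52 (SE 0.028) and RPS19 had a log2 difference of -0.08 (95% interval -0.18 to 0.03). Of 13 mitochondrially encoded genes 9 fell, including MT-CO1 (log2 change -0.42), and 2 rose; with library size only 6 fell and 6 rose, and 1 rose without 6 h replicate 1, 24 h replicate 1 or 24 h replicate 2. Of 27 housekeeping genes 20 fell and 4 rose, and with library size only 8 fell and 9 rose.

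**Figure D4:**
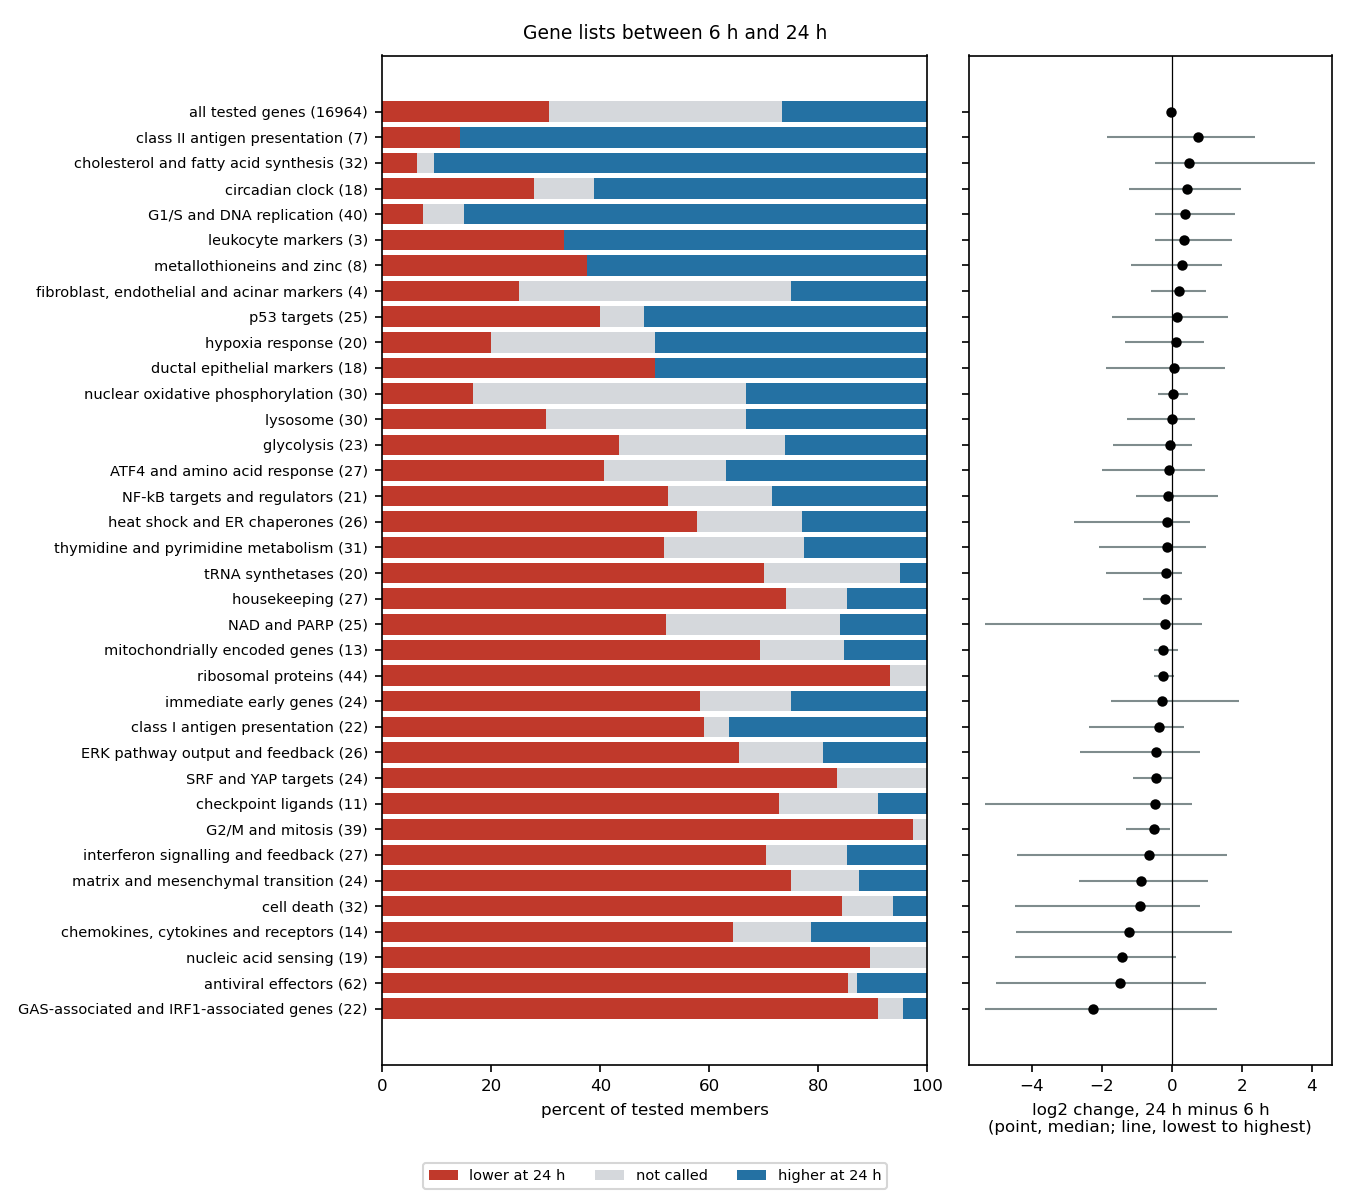
For 35 gene lists, ordered by median, the left panel shows the percent of tested members called lower, not called or called higher at 24 h (number tested in brackets), and the right panel the median and range of the log2 change. The lists of interferon genes sit at the bottom (GAS-associated and IRF1-associated genes, median -2.25) and class II and sterol genes at the top, below the bar for all tested genes.

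**Figure D5:**
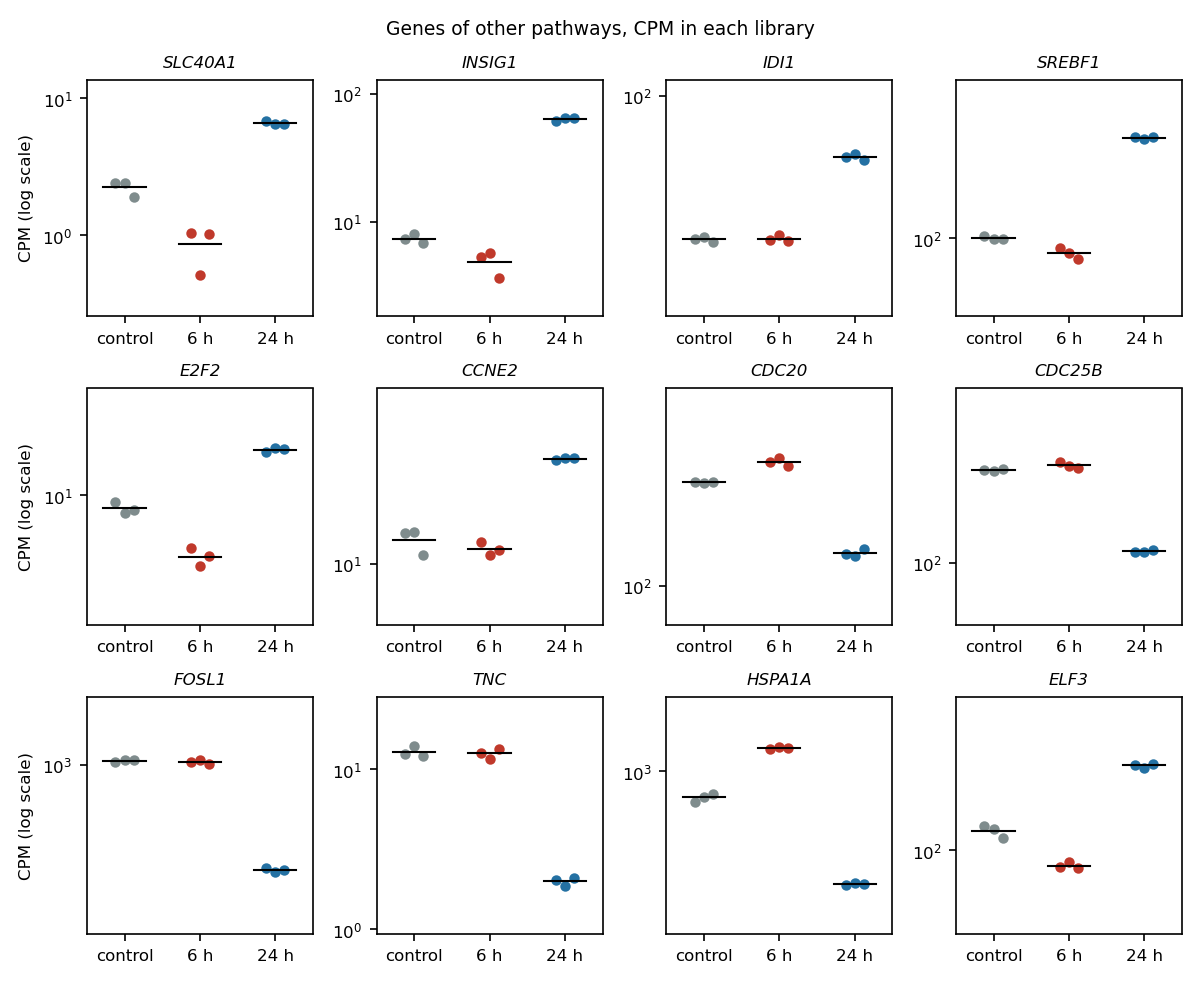
CPM of 12 genes of other pathways in each library, on a log scale with its own range in each panel; points are the 3 libraries of a group and bars their mean. SLC40A1, the sterol and S phase genes and ELF3 are highest at 24 h, and CDC20, CDC25B, FOSL1, TNC and HSPA1A lowest.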

How the data were processed

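RNA of 9 SUIT2 libraries was sequenced, and the authors deposited estimated counts per gene and a normalized table. STAR 2.7.8a, Partek and the hg38 build are named in the submitters' processing notes; which annotation, counter and strand mode they ran with was not given in the sources used here. Without known strand counting, reads of genes that overlap on opposite strands cannot be told apart. The normalized signal deposited by the authors equals each count plus 0.0001 times 1 multiplier per library, and was used only as an alternative. It is named as TMM normalized and was tested with limma on log2 values.

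Estimated counts were rounded to whole numbers. Genes passing filterByExpr defaults (16964) were fitted with edgeR 4.0.16 (R 4.3.3) in 1 quasi-likelihood model over the 9 libraries with TMM factors. P-values were adjusted by Benjamini-Hochberg over all genes tested, with a threshold of 0.05; the residual degrees of freedom were 6 and the biological coefficient of variation 0.0392. Standard errors are the log2 change divided by the square root of F. The share of a rise kept is the mean CPM at 24 h minus control over that at 6 h minus control. DESeq2 1.42.0 and limma 3.58.1 served as alternatives, with other scalings, filters, thresholds, a replicate block and each library left out. On simulated counts of 16698 genes, 50 genes each were changed 1.25, 1.5, 2 and 4-fold between 24 h and 6 h. The test called 62, 64, 82 and 98% of these, and 17 of 16501 unchanged genes. Far fewer genes changed there than in the data, so these shares do not give the sensitivity or false calls here.

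The genes, lists, classes and alternatives were chosen with earlier results of these data known. Named genes follow a rule of the largest rises and falls (15 each, at least 5 CPM in the higher group, groups not overlapping), up to 4 called and 2 uncalled members per list, and the 12 most induced genes (8 for reduced) per class; 137 of the 259 genes that the rule gives are described, picked after their values were seen, and some are not reported here. Further choices made after values had been seen were the early and late division of accumulating genes, the transcript features, the rule for the promoter windows, the genes plotted and the thinning of counts to the smallest total. The keratins and EPCAM given among the ductal markers were also picked in this way, outside the rule.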

Additional observations from a re-analysis of the deposited data

How the results depend on the processing

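The direction of small changes rests on scaling, the standard error on 3 libraries a group, and the precision of low genes on their counts; in simulation 64% of genes changed 1.5-fold were called. Left out one at a time, the libraries gave 8847 to 9739 genes called, 4037 to 4505 higher and 4810 to 5241 lower, 535 to 573 induced genes, of which 325 to 347 decayed, 29 to 35 persisted and 73 to 104 accumulated. The labels number the replicates 1 to 3 in each group. Over all tested genes, same-numbered libraries did not deviate together (correlations -0.0588 to 0.0214, against -0.0277 to 0.0712 for libraries of different numbers). A pairing that touches few genes would not show in these values. With a replicate block 9393 genes were called, 4336 higher and 5057 lower, and 335 induced genes decayed. DESeq2 called 8132 genes, limma-voom 9845, median-of-ratios factors 9731, no low-count filter 9944, a threshold of 0.01 7860 and thinned counts 7621.

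With library size only, 8229 genes were higher (48.5% of all tested) and 2475 lower (14.6%). Members called lower were then 7 for thymidine and pyrimidine metabolism, 6 each for glycolysis, the ATF4 response and NF-kB, 3 for tRNA synthetases, 15 for ribosomal proteins, 8 for housekeeping genes and 3 for ductal markers, and members called higher 20 for lysosome and 26 for nuclear oxidative phosphorylation. With the deposited normalized table and a pseudocount of 1, 5849 genes were called, 975 of them lower (5.75% of all tested). With 0.1 these were 5636 and 941 (5.55%). Under both, members called lower were 7 for class I, 5 for checkpoint ligands, 4 for thymidine and pyrimidine metabolism, 9 for G2/M, 8 for immediate early genes, 9 for ERK output, 2 for glycolysis, 3 for the ATF4 response, 7 for heat shock, 4 for NF-kB, 8 for NAD and PARP, 1 each for tRNA synthetases, housekeeping genes and ductal markers, and 0 for ribosomal proteins, mitochondrially encoded genes and fibroblast, endothelial and acinar markers. SRF and YAP targets had 9 lower with a pseudocount of 1 and 8 with 0.1, and 75 induced genes persisted under both. With 0.1, 872 genes were induced and 216 of these accumulated. With the deposited table the test also differed, limma in place of edgeR. The cause of these shifts beyond the scaling was not tested.

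Tested against a 1.5-fold change, a stricter null, 1683 genes were called, 840 higher (4.95% of all tested) and 843 lower (4.97%). Counts of list members under this null are to be read against these shares and the list sizes given above. Members called lower were 7 for class I, 5 for checkpoint ligands, 4 for thymidine and pyrimidine metabolism, 9 for G2/M, 8 each for immediate early genes, ERK output, SRF and YAP targets and NAD and PARP, 11 for matrix, 2 for glycolysis, 3 for the ATF4 response, 7 for heat shock, 4 for NF-kB, 1 each for tRNA synthetases, housekeeping genes and ductal markers, and 0 for ribosomal proteins, mitochondrially encoded genes and fibroblast, endothelial and acinar markers. Members called higher were 3 for class II, 9 for G1/S, 2 for p53 targets, 13 for cholesterol and fatty acid synthesis, 2 for hypoxia, 6 for the clock, 1 for metallothioneins and 0 for lysosome, nuclear oxidative phosphorylation and leukocyte markers. Leukocyte markers had 1 higher with at least 1 CPM in 3 libraries and 1 with thinned counts. At a mean induction of at least 4-fold, 240 genes were induced, of which 176 decayed, 8 persisted and 30 accumulated. With a narrower margin than 1.5-fold 13 induced genes persisted, and with 2-fold 69.

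Log2 changes that turned sign belonged to genes not called, apart from TYMS and SLC29A1. With library size only they were CFB 0.177, IFI30 0.189, LIPA 0.166, LONRF2 0.144, TK1 0.213, TYK2 0.21, MAVS 0.201, E2F7 0.197, PKM 0.201, RPS19 0.142 and HSPA5 0.151. With the deposited table, at pseudocounts of 1 and 0.1, they were CFB 0.23 and 0.232, IFI30 0.237 and 0.242, LIPA 0.219 and 0.221, LONRF2 0.206 and 0.212, TK1 0.26 and 0.262, TYMS 0.0527 and 0.053, SLC29A1 0.00228 and 0.00249, TYK2 0.259 and 0.263, MAVS 0.257 and 0.26, E2F7 0.256 and 0.26, PKM 0.256 and 0.256, RPS19 0.198 and 0.198, and HSPA5 0.207 and 0.207. With thinned counts they were TAPBPL -0.0354, TK1 0.0031, MAVS 0.033, UNKL -0.019 and FDPS -0.018, and in the fit of the 6 treated libraries TK1 0.0183, TYK2 0.0175, MAVS 0.00875, E2F7 0.00533 and PKM 0.00801. TK1 was at 0.00386 and TYK2 at 0.00123 with at least 1 CPM in 3 libraries, TK1 at 0.00653 with limma-voom, and TK1 at 0.00516 and TYK2 at 0.0026 with median-of-ratios factors. With each library left out, log2 changes ran from -0.0774 to 0.0336 for TK1, -0.0753 to 0.0175 for IFI30, -0.0346 to 0.0262 for TYK2, -0.0394 to 0.0201 for MAVS, -0.0939 to 0.0394 for E2F7, -0.0314 to 0.0248 for UNKL, -0.0391 to 0.00283 for PKM, -0.00833 to 0.0802 for CD276 and -0.0347 to 0.0328 for TAPBPL.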

Other observations

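Long non-coding RNAs and pseudogenes moved unlike each other between the times. Of 1413 tested lncRNAs 393 were higher at 24 h (27.8%) and 193 lower (13.7%), with a median log2 change of 0.21. Of 2093 processed pseudogenes 112 were higher (5.35%) and 505 lower (24.1%), with a median of -0.13. Of 12782 protein-coding genes 3896 were higher (30.5%) and 4352 lower (34%). Processed pseudogenes share sequence with their parent genes, so reads counted to them may come from the parent.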
